A study of Homo sapiens with 6 samples.

Results

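The 49 genes described here code for actin, for proteins that bundle, tension or regulate actin filaments, and for the integrins and adaptor proteins of focal adhesions. They were chosen by name, from values of the same pre-dose contrast that had already been seen, and each was taken as the first table row with its symbol. They are 49 of 13696 genes with a row, and all 49 passed the filter of a mean level of 1 CPM or more (CPM being a gene's count scaled to its library's total) that left 13616 genes. Because the choice rested on the contrast itself, differences between the groups are given below as a description and not as evidence.

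The cells were of hTERT RPE-1, a line from human retinal pigment epithelium made immortal with telomerase, and no allele or transgene beyond hTERT was labelled. In the pre-dose group (3 libraries), cells received camptothecin, which traps topoisomerase 1 on DNA, at 25 nM for 1 h and were then kept for 24 h without it. The untreated group (3 libraries) received none. The series concerns how cells adapt to topoisomerase 1 inhibitors and the role of NEDDylated Cullin 3 in it. Poly-A RNA of whole cultures was sequenced, so fewer cells expressing a gene and less RNA per cell cannot be told apart.

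Actin monomers assemble into filaments, and non-muscle myosin II pulls on filaments that alpha-actinin and filamin hold together, which makes contractile stress fibres. At the cell's edge these fibres end in focal adhesions, where talin, vinculin and kindlin connect them to integrins bound to the matrix outside. Many of the genes are transcribed under serum response factor (SRF), which binds a motif called the CArG box, and its coactivators of the MRTF family, which are held back by unpolymerised actin. RPE cells in culture spread and form such fibres on stiff plastic.

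The promoters that carry this motif are shown because they let a reader see which members have it close to a start site. RefSeq start-site windows on GRCh38.p14, from 250 bases before to 50 bases after a start, were matched for 43 of the 49 members (85 windows). TAGLN, ACTB, MYL9, PTK2, PARVA and ITGA3 were not matched. A CArG box without mismatch, a pattern that matches on both strands or on neither, lay in the windows of 7 of the 43 members (16.3%), against 159 of 9957 tested genes with a window (1.6%). By window the shares were 8.24% for the members and 1.15% for tested genes. ACTN1, FBLIM1, TGFB1I1 and TPM4 also had windows at other starts, which held no box. Which start the cells used was not tested, and the start named below is that of the window with the box. Below, 60 bases around each box are given 5′ to 3′ along the gene, with the box in capitals.
ACTG1, chr17:81512859-81512918 (- strand), box 94 bases before the start: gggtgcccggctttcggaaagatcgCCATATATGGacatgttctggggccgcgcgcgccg
ACTN1, chr14:68977703-68977762 (- strand), box 171 bases before the start: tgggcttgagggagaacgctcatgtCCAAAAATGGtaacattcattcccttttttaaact
CNN2, chr19:1026494-1026553 (+ strand), box 89 bases before the start: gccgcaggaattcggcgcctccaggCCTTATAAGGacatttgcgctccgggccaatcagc
FBLIM1, chr1:15758674-15758733 (+ strand), box 96 bases before the start: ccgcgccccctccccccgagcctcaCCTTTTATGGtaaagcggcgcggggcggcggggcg
FLNA, chrX:154374694-154374753 (- strand), box 94 bases before the start: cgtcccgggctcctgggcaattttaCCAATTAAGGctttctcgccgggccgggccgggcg
TGFB1I1, chr16:31473129-31473188 (+ strand), box 51 bases before the start: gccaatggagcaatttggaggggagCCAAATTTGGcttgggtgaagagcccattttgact
TPM4, chr19:16067340-16067399 (+ strand), box 173 bases before the start: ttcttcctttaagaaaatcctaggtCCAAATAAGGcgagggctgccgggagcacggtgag

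Each of the 7 has a different A and T core between the shared ends. A second motif, GGAATG on either strand (CATTCC on the other), which TEAD factors bind, lay in the windows of 14 of the 43 members (32.6%), against 15.1% of tested genes. By window the shares were closer, at 18.8% for the members and 11.5% for tested genes. None of the CArG boxes overlapped this motif. These are matches of letters in a window and say nothing of binding. The members were picked as actin and adhesion genes, a class long known for the CArG box.

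The genes were among the most abundant of the cells. Of the 49, 45 (91.8%) lay above the 90th percentile of level of the tested genes, and CNN1, at a mean of 5.06 CPM, was the lowest. Together they took 7.27, 6.61 and 6.53% of the CPM of pre-dose replicates 1, 2 and 3, against 7.45, 7.04 and 7.24% in untreated replicates 1, 2 and 3. The means were 6.8 ± 0.405% in pre-dose and 7.24 ± 0.207% in untreated libraries (SD, n = 3 each). The share was lower in the pre-dose library of every pair, but the groups overlapped, since pre-dose replicate 1 stood above untreated replicates 2 and 3. Per kilobase of exon in GENCODE 29, the highest mean levels were 3546 CPM per kb for ACTB, 2968 for ACTG1, 977 for PFN1, 832 for FLNA and 679 for MYH9, and the lowest was 1.75 for CNN1.

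Between the groups, most members were a little lower after the pre-dose. The median difference, pre-dose minus untreated on the log2(CPM + 1) scale, was -0.096 over the members and -0.0013 over all 13616 genes. The difference was below 0 for 43 of 49 members, against 6890 of the 13616 genes. Over the members it ran from -0.27 (TAGLN) to 0.13 (FLNC). In a limma fit over all genes, 0 members and 0 genes (0% of those tested) passed an adjusted p of 0.05, and 7 members and 280 genes had an unadjusted p under 0.05. In the authors' deposited table, whose model is not given in the sources used here, 20 members were past an adjusted p of 0.05 as lower, where 1.45% of all genes were. None was past it as higher, where 1.61% of all genes were. Since that contrast chose the members, nothing is read from these counts.

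Same-numbered libraries of the groups were compared as pairs, which for replicates 2 and 3 is an assumption. All 3 pre-dose libraries were below their untreated partners for 33 of 49 members, against 16.3% of all genes, and above them for 1 member, PXN, against 15.6%. The groups did not overlap for 10 members with lower pre-dose values (3.19% of all genes) and for 1, again PXN, with higher ones (3.36%). The 10 were FLNA, TAGLN, TPM4, MYH9, MYH10, MYL6, TGFB1I1, VASP, CSRP1 and PDLIM7. The pairs differed in size. The median member difference was -0.04 in the replicate 1 pair, -0.092 in the replicate 2 pair and -0.17 in the replicate 3 pair. In these pairs 37, 43 and 45 of the 49 members were lower, against 7026, 6901 and 6746 of all 13616 genes.

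**Figure D1:**
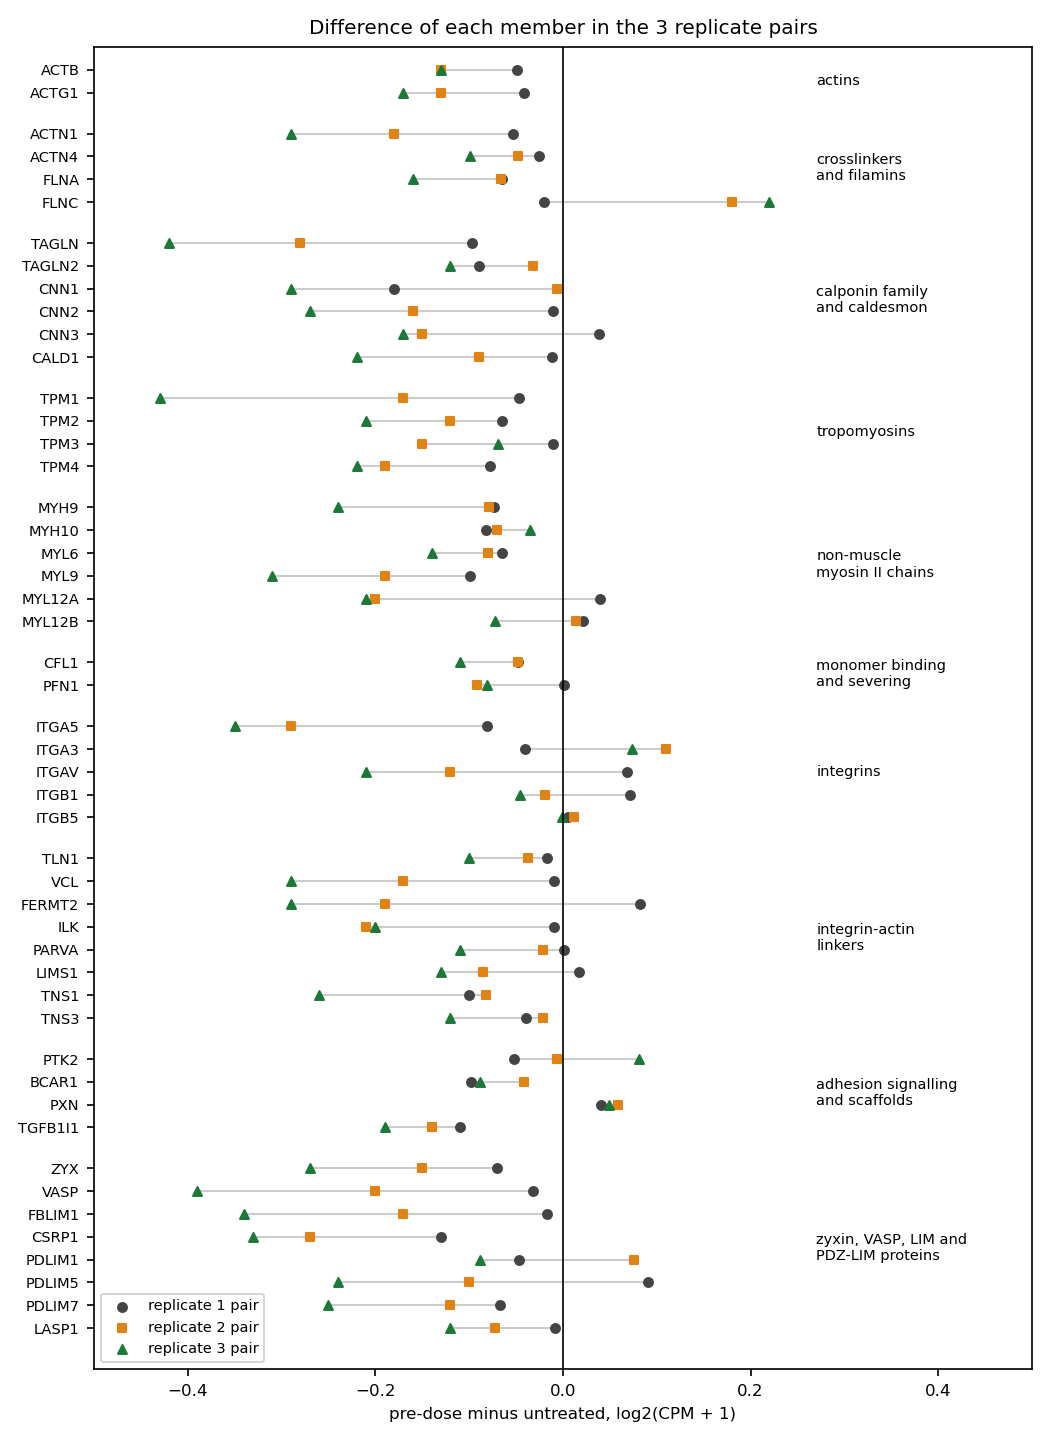
Difference of each of the 49 members between the pre-dose and untreated library of the same replicate number (x axis, pre-dose minus untreated on log2(CPM + 1)), grouped by role. Circles, squares and triangles are the replicate 1, 2 and 3 pairs, and grey lines span the range; most points lie left of 0, with circles nearest to 0 and triangles farthest, while all 3 points of PXN and the squares and triangles of FLNC and ITGA3 lie to the right.

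The cytoplasmic actins form the filaments themselves. ACTB, beta-actin, had 14470, 10571 and 11112 CPM in pre-dose replicates 1, 2 and 3, against 14966, 11569 and 12183 CPM in untreated replicates 1, 2 and 3. ACTG1, gamma-actin, had 10019, 7722 and 7892 CPM in pre-dose libraries, against 10310, 8452 and 8898 CPM in untreated ones. Both were highest in the replicate 1 libraries of either group and lower after the pre-dose within each pair, and the groups overlapped. The differences were -0.10 ± 0.15 for ACTB and -0.11 ± 0.12 for ACTG1 (SE, log2(CPM + 1)), so each SE was at least as large as its difference. These SEs come from the fit without pairs and include the offset of replicate 1. Within the 3 pairs the differences were -0.049, -0.13 and -0.13 for ACTB and -0.041, -0.13 and -0.17 for ACTG1. Without untreated replicate 1 the ACTB difference was 0.007, and without pre-dose replicate 1 it was -0.243. Each of these fits kept only one side of the replicate 1 pair, and without both of its libraries the difference was -0.131. The coding sequences of the 2 actins are nearly alike and both have processed pseudogenes, so how reads were split between copies is uncertain.

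Filament crosslinkers did not all stand on the same side. ACTN1, the alpha-actinin of stress fibres and adhesions, had 1589, 1329 and 1305 CPM in pre-dose libraries, against 1649, 1501 and 1596 CPM in untreated ones. Its difference was -0.17 ± 0.088 (SE), and the authors' deposited table gives an adjusted p of 0.0331. FLNA, the filamin that crosslinks actin and binds integrin tails, had 8808, 8449 and 8300 CPM after the pre-dose, against 9213, 8843 and 9247 CPM without it. The FLNA groups did not overlap, at a difference of only -0.096 ± 0.06 (SE). FLNC (ENSG00000128591, chr7:128830377-128859274), a filamin best known from muscle, had 2727, 2028 and 2152 CPM in pre-dose libraries, against 2765, 1788 and 1854 CPM in untreated ones. It was higher after the pre-dose in replicates 2 and 3 and nearly level in replicate 1, where both libraries were far above the rest. The FLNC difference was 0.13 ± 0.18 (SE). It was -0.002 without pre-dose replicate 1, 0.327 without untreated replicate 1 and 0.199 without both. ACTN4, the other non-muscle alpha-actinin, differed by -0.058 ± 0.11 (SE).

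Among the calponin family, TAGLN had the largest difference of the 49. TAGLN (transgelin, ENSG00000149591, chr11:117199321-117204782 on GRCh38) binds actin filaments and is a known SRF target. It had 850, 888 and 850 CPM in pre-dose replicates 1, 2 and 3, against 909, 1081 and 1140 CPM in untreated replicates 1, 2 and 3. The groups did not overlap, and the 3 pre-dose libraries lay close together while the untreated ones were spread. The difference was -0.27 ± 0.088 (SE), a mean 17.3% below that of untreated cells, and it was -0.097, -0.28 and -0.42 in the 3 pairs. CNN2, a calponin of non-muscle cells, had 566, 500 and 470 CPM after the pre-dose, against 571, 560 and 566 CPM without it. The untreated CNN2 values were almost level, and pre-dose replicate 1 reached them. CNN3, a further calponin, had 287, 281 and 281 CPM in pre-dose libraries, against 280, 313 and 316 CPM in untreated ones, so the replicate 1 pair stood the other way round. Adjusted p-values in the authors' deposited table were 0.0254 for TAGLN, 0.0327 for CNN2 and 0.046 for CNN3. The remaining members, TAGLN2, CNN1 and CALD1 (caldesmon), had differences from -0.16 to -0.081.

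Tropomyosins lie along the filament and set which myosins and severing proteins reach it. TPM1 had 1527, 2037 and 1753 CPM in pre-dose libraries, against 1577, 2287 and 2362 CPM in untreated ones. The replicate 1 libraries were lowest in both groups, and the difference was -0.21 ± 0.17 (SE). TPM2 had 1152, 1267 and 1227 CPM after the pre-dose, against 1205, 1379 and 1416 CPM without it, a difference of -0.13 ± 0.078 (SE). TPM4 had 1387, 1290 and 1258 CPM in pre-dose libraries, against 1464, 1474 and 1465 CPM in untreated ones. The untreated TPM4 values were nearly equal, all pre-dose values were below them, and the difference was -0.16 ± 0.057 (SE). In the authors' deposited table the adjusted p-values were 0.0479 for TPM1, 0.043 for TPM2 and 0.0254 for TPM4. TPM3 differed by -0.076 ± 0.12 (SE). Exons of the 4 genes are similar in sequence, and 21.4% of the exon length of TPM1 overlaps genes on the other strand, whose reads cannot be told apart as the strand setting of the counting is not given in the sources used here.

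Non-muscle myosin II consists of heavy chains, essential light chains and regulatory light chains. MYH9, the heavy chain of myosin IIA, had 6013, 5964 and 5553 CPM in pre-dose libraries, against 6332, 6298 and 6564 CPM in untreated ones. MYH10, the heavy chain of myosin IIB, had 200, 196 and 201 CPM after the pre-dose, against 211, 205 and 206 CPM without it. For neither did the groups overlap, and the differences were -0.13 ± 0.062 for MYH9 and -0.062 ± 0.049 for MYH10 (SE). Per kilobase of exon the IIA chain averaged 679 CPM and the IIB chain 22.6 CPM. MYL6, the essential light chain, had 1166, 1162 and 1125 CPM in pre-dose libraries, against 1220, 1228 and 1237 CPM in untreated ones, again without overlap.

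The regulatory light chains, whose phosphorylation switches the motor on, differed among themselves. MYL9 had 545, 622 and 578 CPM in pre-dose libraries, against 584, 708 and 714 CPM in untreated ones, a difference of -0.20 ± 0.094 (SE). MYL12A had 205, 204 and 196 CPM after the pre-dose, against 200, 234 and 227 CPM without it. MYL9 was lower in all 3 pairs, whereas MYL12A was slightly higher in the replicate 1 pair. MYL12B, a near-copy of MYL12A beside it on chromosome 18, differed by -0.013 ± 0.05 (SE), and reads of the copies may have been shared between them. The authors' deposited table gives adjusted p-values of 0.0351 for MYH9, 0.0313 for MYL9 and 0.0369 for MYL12A.

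**Figure D2:**
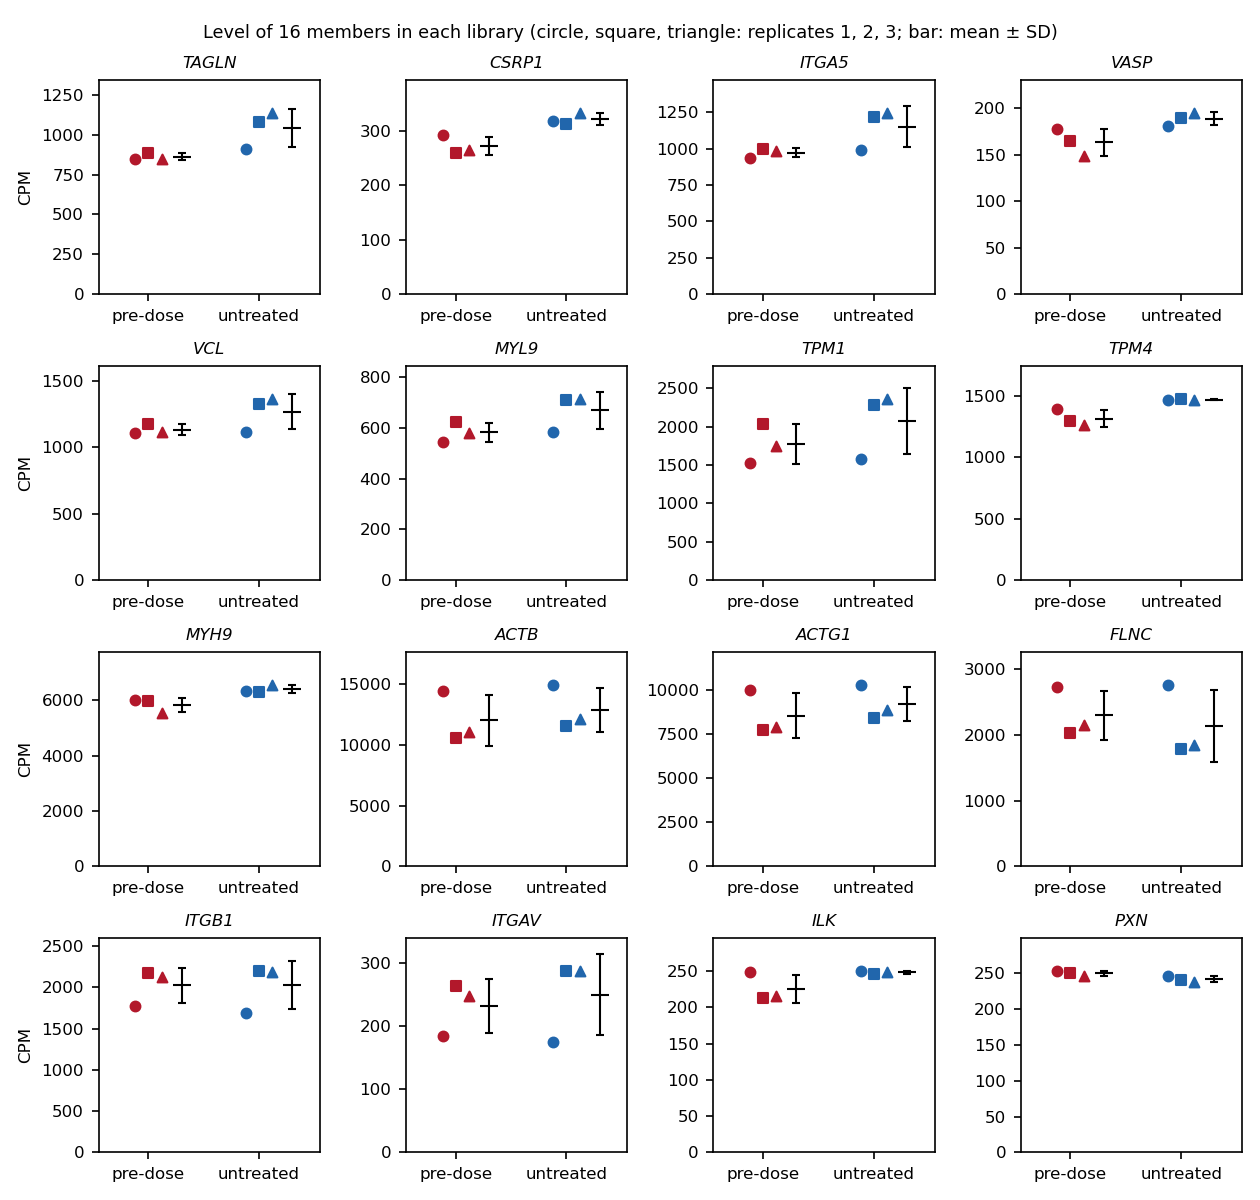
Level in CPM (y axis, from 0) of 16 members in each pre-dose (red, left) and untreated (blue, right) library, with the mean ± SD of each group (n = 3) in black. TAGLN, CSRP1, VASP, TPM4 and MYH9 show no overlap between the groups, whereas in ACTB, ACTG1, FLNC, ITGB1 and ITGAV the circles of replicate 1 lie apart from the other libraries in both groups.

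Cofilin and profilin, which sever filaments and feed monomers to their ends, had small differences. CFL1 differed by -0.067 ± 0.063 and PFN1 by -0.057 ± 0.096 (SE), and for both the groups overlapped.

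Integrins are paired receptors, and ITGA5 with ITGB1 forms the fibronectin receptor. ITGA5 (ENSG00000161638, chr12:54395261-54419460) had 936, 999 and 981 CPM in pre-dose libraries, against 989, 1219 and 1248 CPM in untreated ones. Its difference was -0.24 ± 0.094 (SE), and the authors' deposited table gives an adjusted p of 0.0254. Pre-dose replicates 2 and 3 were below untreated replicates 2 and 3 by a mean of -0.32, and the overlap came from untreated replicate 1. ITGB1, the common beta chain, had 1776, 2169 and 2122 CPM after the pre-dose, against 1691, 2197 and 2190 CPM without it. The ITGB1 difference was 0.002 ± 0.12 (SE), and replicate 1 was the lowest library of each group. ITGA3, a laminin receptor chain, had 1862, 2244 and 2211 CPM in pre-dose libraries, against 1914, 2073 and 2101 CPM in untreated ones, a difference of 0.049 ± 0.086 (SE). ITGB5, which pairs with ITGAV, had 421, 450 and 460 CPM in pre-dose libraries, against 420, 446 and 460 CPM in untreated ones. The ITGB5 values were nearly the same in each pair. ITGAV differed by -0.088 ± 0.22 (SE), with 184, 264 and 247 CPM after the pre-dose, against 175, 287 and 287 CPM without it. Only ITGA5 of the 5 integrins was lower in all 3 pairs.

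Proteins that connect integrins to actin were next. TLN1, talin, which activates integrins, had 1663, 1587 and 1574 CPM in pre-dose libraries, against 1683, 1628 and 1691 CPM in untreated ones. VCL, vinculin, which strengthens talin's grip on actin under force, had 1105, 1176 and 1113 CPM after the pre-dose, against 1113, 1326 and 1363 CPM without it. The vinculin values of the replicate 1 pair were level with the other pre-dose values, and untreated replicates 2 and 3 stood above all 4. The differences were -0.053 ± 0.053 for TLN1 and -0.16 ± 0.085 for VCL (SE). FERMT2, the kindlin that activates integrins with talin, had 115, 112 and 107 CPM in pre-dose libraries, against 108, 128 and 131 CPM in untreated ones. Its replicate 1 pair stood the other way round from replicates 2 and 3. ILK, a pseudokinase that joins integrins to parvin and PINCH, had 248, 213 and 216 CPM after the pre-dose, against 250, 246 and 249 CPM without it. Here pre-dose replicate 1 lay among the untreated values. Genes on the other strand overlap 78.5% of the exon length of ILK, and their reads cannot be told apart from its own. In the authors' deposited table the adjusted p-values were 0.0313 for VCL, 0.0331 for FERMT2, 0.0351 for ILK and 0.148 for TLN1. PARVA, LIMS1 (PINCH), TNS1 and TNS3 had differences from -0.15 to -0.044.

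The signalling scaffolds of adhesions stood on both sides of 0. PTK2, focal adhesion kinase, had 148, 145 and 153 CPM in pre-dose libraries, against 153, 146 and 145 CPM in untreated ones, a difference of 0.0079 ± 0.054 (SE). PXN (ENSG00000089159, chr12:120210439-120265771), paxillin, a platform for that kinase, had 253, 250 and 246 CPM after the pre-dose, against 246, 240 and 238 CPM without it. Paxillin was the only member higher in all 3 pairs, with pre-dose libraries at or above the highest untreated one, and its difference was 0.05 ± 0.048 (SE). The authors' deposited table gives it an adjusted p of 0.34. TGFB1I1 (Hic-5), the closest relative of paxillin, had 143, 136 and 130 CPM in pre-dose libraries, against 154, 150 and 149 CPM in untreated ones. Its groups did not overlap either, with the pre-dose values below, at a difference of -0.15 ± 0.057 (SE) and an adjusted p of 0.0375 in the authors' deposited table. BCAR1 (p130Cas) differed by -0.076 ± 0.10 (SE).

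Zyxin, VASP and the LIM-domain proteins gather on stress fibres and at maturing adhesions. Of these 8 members, 6 were lower in all 3 pairs, where 16.3% of all genes were, and 5 were called lower in the authors' deposited table, where 1.45% of all genes were. Their median difference was -0.15, and as the contrast chose them nothing is read from these counts. ZYX, zyxin, which senses strained filaments, had 551, 472 and 462 CPM in pre-dose libraries, against 578, 524 and 556 CPM in untreated ones. VASP, which elongates filaments and is recruited by zyxin, had 177, 164 and 148 CPM after the pre-dose, against 181, 189 and 195 CPM without it. The groups overlapped for ZYX and not for VASP, whose difference was -0.21 ± 0.075 (SE). FBLIM1, migfilin, which joins filamin to kindlin, had 206, 218 and 201 CPM in pre-dose libraries, against 208, 246 and 255 CPM in untreated ones. CSRP1 (ENSG00000159176, chr1:201483530-201509456), a LIM protein that binds alpha-actinin and zyxin, had 292, 260 and 265 CPM in pre-dose libraries, against 319, 314 and 334 CPM in untreated ones. CSRP1 had no overlap and a difference of -0.25 ± 0.063 (SE), with -0.13, -0.27 and -0.33 in the 3 pairs. PDLIM7, a PDZ and LIM protein of actin fibres, had 388, 395 and 377 CPM after the pre-dose, against 406, 430 and 448 CPM without it. Its groups did not overlap, at a difference of -0.15 ± 0.057 (SE). The adjusted p-values in the authors' deposited table were 0.0369 for ZYX, 0.0254 for VASP, 0.0295 for FBLIM1, 0.0254 for CSRP1 and 0.0327 for PDLIM7. PDLIM1, PDLIM5 and LASP1 had differences from -0.083 to -0.02.

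**Figure D3:**
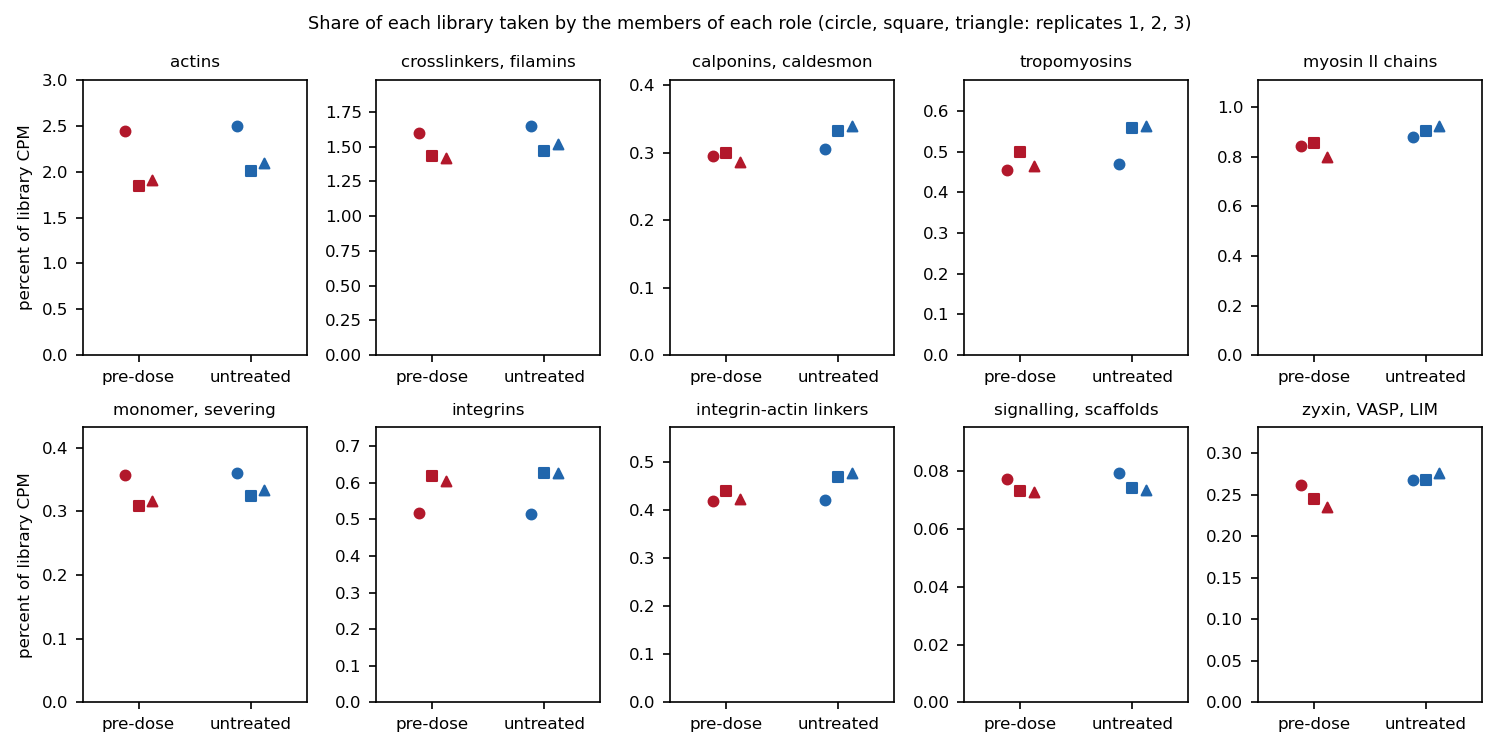
Percent of each library's CPM (y axis, from 0) taken by the members of each of the 10 roles, in pre-dose (red, left) and untreated (blue, right) libraries. For the actins replicate 1 (circles) is highest in both groups, at 2.44% in pre-dose and 2.5% in untreated cells, and for the integrins it is lowest in both, at 0.516% in pre-dose and 0.514% in untreated cells.

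Replicate 1 stood apart in both groups. Over all tested genes, the first principal component carried 59.4% of the variance and put both replicate 1 libraries (-18 in pre-dose, -20.6 in untreated) opposite the other 4 (6.94 to 16.4). Library weights estimated by voom were 0.199 for pre-dose and 0.23 for untreated replicate 1, against 1.26 to 2.86 for the rest. The members split in this direction. Set against the mean of the other 4 libraries, 26 were higher and 23 lower in replicate 1. The largest offsets were 0.49 for FLNC, 0.38 for ACTB, 0.32 for TPM3 and 0.30 for ACTG1, and -0.59 for ITGAV, -0.51 for CNN1, -0.43 for TPM1 and -0.36 for TNS1. Both replicate 1 libraries were below all other libraries for 14 members (28.3% of all genes) and above them for 10 (27.2%). Together these were 24 members (49%), against 55.5% of all genes.

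The group difference was also smallest there. Of the 49 members, 42 (85.7%) were lower after the pre-dose in both the replicate 2 and the replicate 3 pair, against 32.4% of all genes. The replicate 1 difference was the smallest of the 3 in size for 39 members (79.6%, against 42.1% of all genes), and the replicate 3 difference was the largest for 40 (81.6%, against 31.2%). For 11 members (22.4%, against 32.8% of all genes) the replicate 1 pair had the opposite sign to both others. It was small both for the 26 members higher in replicate 1 (pair medians -0.048, -0.079 and -0.13) and for the 23 lower in it (-0.017, -0.12 and -0.22). The labels give no batch for replicate 1, and its part in the smaller difference was not tested.

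**Figure D4:**
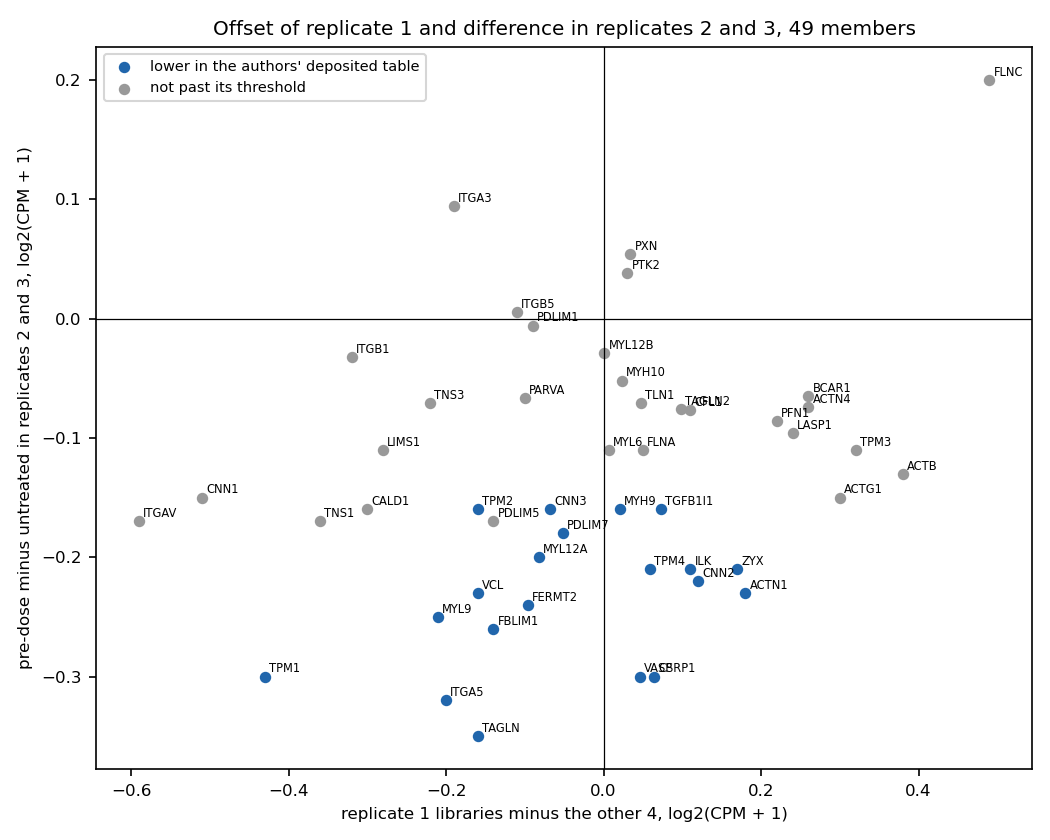
Offset of the replicate 1 libraries from the other 4 (x axis, log2(CPM + 1)) against the mean difference in replicates 2 and 3, pre-dose minus untreated (y axis, log2(CPM + 1)), for each of the 49 members. Blue points are members past an adjusted p of 0.05 as lower in the authors' deposited table; they lie at the bottom, on both sides of 0 on the x axis, while FLNC lies alone at the upper right.

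With replicates 2 and 3 alone and the replicate number as a block, limma called 25 members lower, where 4.96% of all genes were, and 1 (FLNC) higher, where 4.05% of all genes were. That fit leaves 1 degree of freedom per gene before pooling. With voom library weights over all 6 libraries, 8 members were called lower, where 0.308% of all genes were, and 0 higher, where 0.485% were. The 8 were TAGLN, TPM4, MYL9, ITGA5, VCL, VASP, FBLIM1 and CSRP1, all of them lower in the 3 pairs and also called lower in the authors' deposited table. All of these counts come from the contrast that chose the members.

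Further genes of the same machinery were counted in lists drawn up by function, with earlier results known. Of all genes, 16.3% were lower and 15.6% higher in all pairs, and 1.45% were called lower and 1.61% higher in the authors' deposited table. Among 15 SRF and MRTF factors and further targets, 4 were lower and 1 higher in all pairs, the median difference was -0.045, and the authors' deposited table called 0 of them. SRF itself had 116, 104 and 108 CPM in pre-dose libraries, against 113, 113 and 118 CPM in untreated ones, so it was lower in replicates 2 and 3 only. Its coactivator MRTFA had 83.6, 77.3 and 78.4 CPM after the pre-dose, against 83.7, 76.9 and 77.3 CPM without it. By the smallest p in the authors' deposited table, the list was led by FHL2 (adjusted p = 0.0715) and ANKRD1 (0.0748), both higher, and SMTN and WDR1 (0.106 each), both lower. ANKRD1, which answers to SRF and to the YAP and TEAD pathway, had 505, 544 and 515 CPM in pre-dose libraries, against 482, 477 and 481 CPM in untreated ones, and was the one gene of the list whose groups did not overlap.

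Of the 9 subunits of the Arp2/3 complex, which nucleates branched filaments, 2 were lower and 1 was higher in all pairs (median -0.059), and 0 passed in the authors' deposited table. ARPC4 had 128, 128 and 116 CPM after the pre-dose, against 137, 133 and 133 CPM without it, while ARPC1A had 180, 148 and 151 CPM after it, against 171, 139 and 140 CPM without it.

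Of 18 capping, severing and monomer-binding genes, the authors' deposited table called DSTN (adjusted p = 0.0373) and CAP1 (0.0391), both lower. DSTN, destrin, had 309, 335 and 325 CPM in pre-dose libraries, against 302, 399 and 389 CPM in untreated ones, and so was higher in the replicate 1 pair. CAP1, which recharges actin monomers, had 562, 571 and 556 CPM after the pre-dose, against 575, 618 and 627 CPM without it. The list had 5 genes lower and 1 higher in all pairs, with a median of -0.031. Of 22 further focal adhesion genes, 6 were lower and 0 higher in all pairs (median -0.038). PALLD (adjusted p = 0.0331), LIMS2 (0.0475) and RSU1 (0.0475) were called lower in the authors' deposited table. PALLD, palladin, which bundles filaments, had 339, 362 and 349 CPM in pre-dose libraries, against 355, 402 and 413 CPM in untreated ones.

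The 10 further integrins had a median above 0, at 0.068, with 1 lower and 4 higher in all pairs. ITGA6, a laminin receptor chain, was called higher in the authors' deposited table (adjusted p = 0.0369). It had 87.1, 73.4 and 80.9 CPM in pre-dose libraries, against 76.5, 67.5 and 63.6 CPM in untreated ones, a difference of 0.22 ± 0.093 (SE). Its libraries overlapped between the groups, and it was higher after the pre-dose in each pair. Beside it, the fibronectin receptor chain ITGA5 was lower in each pair.

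**Figure D5:**
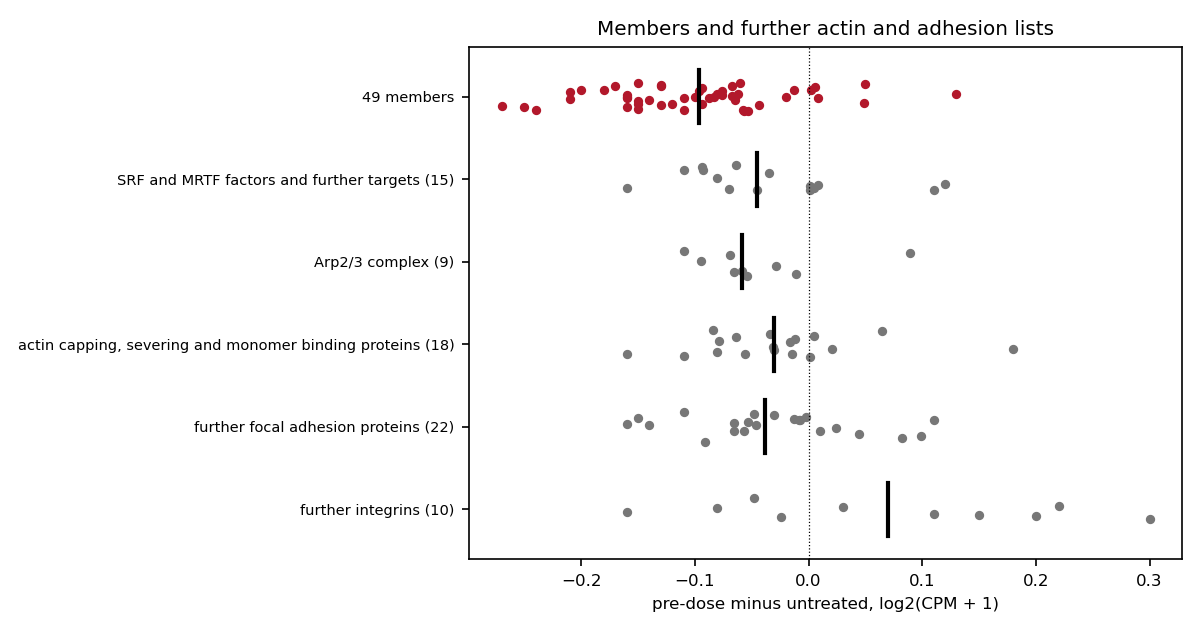
Difference of each gene, pre-dose minus untreated on log2(CPM + 1) (x axis), for the 49 members (red) and 5 further lists (grey), with the median of each list as a black bar. The bar of the members is at -0.096, those of the 4 lists of other actin and adhesion genes are between -0.059 and -0.031, and that of the further integrins is at 0.068; vertical scatter within a row has no meaning.

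Markers of cell type were checked beside these values. Of 13 markers of retinal pigment epithelium 5 were measured, while RPE65, RLBP1, LRAT, TYR, TYRP1, PMEL, SERPINF1 and TTR had no row under these symbols. KRT18, a keratin of simple epithelia, had 428, 414 and 413 CPM in pre-dose libraries, against 431, 455 and 461 CPM in untreated ones. Its groups did not overlap, and it was called lower in the authors' deposited table. KRT8 ranged from 869 to 920 CPM in pre-dose and from 875 to 979 CPM in untreated libraries, while BEST1 ranged from 4.14 to 5.4 CPM over all 6. MITF, a transcription factor of pigment cells, had 46.1, 50.6 and 49.4 CPM after the pre-dose, against 44.9, 46.4 and 45.2 CPM without it, and so was higher in all 3 pairs, with overlap. OTX2, a factor of eye and brain development, had 15.8, 17.7 and 18.4 CPM in pre-dose libraries, against 16.3, 18 and 17 CPM in untreated ones. The 6 smooth muscle markers measured summed to 0.0449 to 0.0532% of the CPM in pre-dose and 0.0499 to 0.0526% in untreated libraries. Among them MYH11, the defining myosin, was at 1.01 to 1.86 CPM. ACTA2, smooth muscle actin, which cultured cells also make in stress fibres, had 67, 90.5 and 80.2 CPM after the pre-dose, against 57.4, 98.5 and 104 CPM without it. The 3 fibroblast markers measured summed to 0.0261 to 0.0505% of the CPM in pre-dose and 0.0291 to 0.0604% in untreated libraries, lowest in replicate 1 of each group. Among them COL1A1 had 139, 321 and 258 CPM after the pre-dose, against 160, 409 and 428 CPM without it. It was lower in all 3 pairs, with overlap, at a difference of -0.42 ± 0.44 (SE), larger than that of any member. PDGFRA and PDGFRB were mixed over the pairs. Endothelial (1 measured), blood (3) and neuronal (3) markers each summed to at most 0.00942% of the CPM in any library. CD68 had 70.7, 74.6 and 75.9 CPM after the pre-dose, against 65.4, 58.2 and 65.2 CPM without it. Its groups did not overlap, and it was called higher in the authors' deposited table. HBB was lower without overlap and was not called there, and ITGB2 was mixed over the pairs. KDR and the 3 neuronal markers were higher in all 3 pairs, where 15.6% of all genes were. The part of other cell types in the member differences was not tested.

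Some transcripts of striated muscle varied strongly between libraries of both groups. CKM, muscle creatine kinase, had 3.73, 14.4 and 0.0833 CPM in pre-dose replicates 1, 2 and 3, against 0.153, 1.73 and 4.33 CPM in untreated replicates 1, 2 and 3. ACTA1, skeletal muscle actin, had 3.92, 8.7 and 0.15 CPM after the pre-dose, against 0.0509, 1.12 and 4.36 CPM without it. A level of 3 counts was 0.0944 to 0.114 CPM, so these genes were at or near that limit in pre-dose replicate 3 and untreated replicate 1. The 4 striated muscle markers measured summed to 0.00324 to 0.0064% of the CPM in pre-dose and 0.0027 to 0.00442% in untreated libraries, mostly TNNT1. TNNT1 itself varied far less, with 24.7, 33.6 and 32.1 CPM in pre-dose libraries, against 27, 33.9 and 32.3 CPM in untreated ones. The part of these transcripts in the differences of TPM1, TPM2 and FLNC, which muscle also expresses, was not tested.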

How the data were processed

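The table deposited by the authors gives, per gene and library, a log2 value of CPM with 0.5 added to an estimated count, as read from its values, and the authors' p-values and log2 fold changes, per the file headers. The deposited fold change ran untreated minus pre-dose and was turned here. The tools bcl2fastq, DRAGEN, edgeR and limma and build hg38 are named in the submitters' processing notes, while counter, annotation, strand setting and model are not given in the sources used. Of 13773 rows, 77 repeats of an identifier were dropped. The lowest values implied library totals of 26336941 to 31780391, with counting error only in the limits drawn from them.

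Here values were set to log2(CPM + 1), genes averaging 1 CPM or more were kept, and limma-trend (limma 3.58.1, R 4.3.3) was fitted to all 6 libraries, with Benjamini-Hochberg adjustment at 0.05. The code was tested on simulated data with changes far larger than the member differences, so that test says nothing of differences of their size. Nothing in the labels says that replicates were separate cultures, so p-values measure no more than the spread between these samples, possibly a technical one. Members and lists were chosen with earlier results of these data known. The members given per library are those called in the authors' deposited table and those without overlap. Members with the 6 highest and the 6 lowest differences and 8 core genes are given too. ACTA2, SRF, MRTFA, ARPC1A, ITGAV, KRT18, COL1A1, CD68, HBB and the muscle genes were added after their values were seen.

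The replicate numbers were taken to pair the libraries. Deviations from the group means correlated across genes at 0.664, 0.454 and 0.176 for same-numbered replicates 1, 2 and 3. Pre-dose 2 with untreated 3 reached 0.515 and pre-dose 3 with untreated 2 reached 0.276, both above the value of replicate 3. Such deviations sum to 0 within a group, so a replicate 1 that stands apart tends to make replicates 2 and 3 correlate under either pairing. For replicates 2 and 3 the pairing is therefore an assumption. With the replicate block, 0 genes and 0 members were called. Gene models were GENCODE 29 (GRCh38). Alternatives were other pseudocounts, filters, scalings, the block, library weights and libraries left out. One further list is not reported here.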

Additional observations from a re-analysis of the deposited data

How the results depend on the processing

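The median difference of the members stayed below 0 under every alternative run, between -0.153 and -0.040, and moved by less than the SD of the pair medians (0.067). That SD comes from the same pairs. As the same contrast chose the members, the unchanged sign is a description and not evidence. The counts of calls did not stay. Limma called 0 genes and 0 members over all 6 libraries, also under other pseudocounts, filters and scalings and without any single library (range 0 to 0). Of 13616 genes and 49 members tested, it called 1227 and 26 in replicates 2 and 3 alone with the replicate block. It called 866 and 24 there with no replicate block (chosen after seeing the data), and 108 and 8 with voom library weights. The replicate block over all 6 libraries called 0 genes and 0 members, with a smallest adjusted p of 0.138, although 1443 genes and 27 members then had an unadjusted p under 0.05. The median replicate 1 offset of the members, 0.007, turned to -0.052 under quantile normalization, to -0.025 in untreated libraries alone, and ranged from -0.002 to 0.012 without replicate 3 or replicate 2, so it has no stable sign. Of 32 named members, 6 changed sign in the replicate 1 pair alone: FLNC, CNN3, MYL12A, ITGA3, FERMT2 and PTK2. Without a single library, signs changed for ACTB, FLNC, ITGB1, ITGB5 and PTK2 in at least 1 case. The causes were not tested.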

Other observations

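The transcripts of striated muscle were looked at further after their values were seen. Over the 4 libraries with the highest values, 4 genes of fast skeletal muscle, picked from those looked at, had the same order. TTN and ENO3, also looked at, did not have it. TTN had 7.64, 17.4 and 6.46 CPM in pre-dose libraries, against 6.23, 9.07 and 10.1 CPM in untreated ones. ENO3 was nearly level, at 4.13, 5.88 and 4.14 CPM after the pre-dose, against 4.25, 5.17 and 4.92 CPM without it. CKM, ACTA1, MYH1, TNNI2 and NEB had the shared order too. Values of the 4 picked genes follow. MYH2 had 2.36, 6.84 and 0.0167 CPM in pre-dose replicates 1, 2 and 3, against 0.0509, 1.1 and 3.35 CPM in untreated replicates 1, 2 and 3. TNNT3, fast troponin T, had 1.12, 4.39 and 0.05 CPM after the pre-dose, against 0.0509, 0.664 and 2.22 CPM without it. PYGM, muscle glycogen phosphorylase, had 1.68, 3.8 and 0.05 CPM in pre-dose libraries, against 0.017, 1.04 and 2.32 CPM in untreated ones. These 3 were highest in pre-dose replicate 2 and at or under the level of 3 counts in pre-dose replicate 3 and untreated replicate 1. ATP2A1, the calcium pump of fast muscle, had 6.03, 20 and 1.38 CPM after the pre-dose, against 1.04, 4.17 and 7.17 CPM without it. The libraries that hold these transcripts cut across both the groups and the replicate numbers.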
